A study of Homo sapiens with 14 samples.

Results

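WNT signalling was read through 10 genes in H9 human embryonic stem cells (hESC) and in the endoderm, foregut and gastruloid cells made from them. The genes are the ligands WNT3, WNT3A, WNT5A and WNT5B, the secreted antagonists DKK1, FRZB and WIF1, and AXIN2, LEF1 and SP5, which are commonly used as readouts of beta-catenin activity. The genes were chosen by name and role, with no measured value in the rule. Earlier results of these data were known, however, when they and the pathway lists below were chosen. All 10 were found among the 63677 gene identifiers of each bulk table and among the 17493 genes of the gastruloid nuclei.

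WNT ligands are lipid-modified proteins that bind Frizzled receptors. With a canonical ligand, LRP5 or LRP6 joins the complex, the destruction complex that degrades beta-catenin is held back, and beta-catenin binds TCF/LEF factors at target genes. CHIR-99021 (CHIR) inhibits GSK-3, a kinase of the destruction complex, and so activates the pathway below the ligand and its receptor. In the vertebrate embryo WNT3 and beta-catenin act in forming the primitive streak, from which mesoderm and definitive endoderm arise, WNT3A acts in the tailbud, and the WNT5 proteins are best known for signalling without beta-catenin. CHIR was part of the treatment in both the endoderm and the gastruloid protocols. Ligand genes and target genes were thus read there in cells that had earlier been given a drug acting on the pathway. Pathway activity itself was not measured.

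The bulk series held 12 RNA-seq libraries. Undifferentiated hESC (2 libraries) were grown in mTeSR Plus on Matrigel. Endoderm (3 control libraries and 3 with sgRNA) was made with 100 ng/ml Activin A over 3 days, with CHIR at 5 uM on the first day and 0.5 uM on the second. Foregut (2 control libraries and 2 with sgRNA) was made by a commercial pancreatic protocol, with 3 days toward endoderm and then 3 days toward foregut. No Activin A or CHIR dose is given for that protocol. Both endoderm arms expressed dCAS9-KRAB, a catalytically dead Cas9 fused to a repressor domain, and the sgRNA arm also a guide against LTR5, the long terminal repeats of the HERVK endogenous retrovirus. The labels of the hESC libraries name no dCAS9-KRAB, so its presence and differentiation cannot be told apart where endoderm is set against hESC. The foregut titles name a control and a CRISPRi arm but do not state dCAS9-KRAB in the controls. It may therefore also differ between foregut and endoderm controls. The gastruloid, an aggregate of hESC that elongates and forms axial cell types, was 1 preparation: 3 uM CHIR for 24 h in flat culture, then aggregates of 800 cells with 3 uM CHIR for 18 h, harvested at 72 h and profiled as nuclei for RNA and open chromatin. The paper states that its RNA-seq experiments had 2 or more independent biological replicates. The labels do not say whether libraries of a group came from separate cultures or clones. The p-values measure the spread between these libraries. In edgeR this spread is shared across genes, so it is not the spread of each gene alone.

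Libraries held 11583063 to 37152434 reads in genes, with 8.30% to 34.7% of them in mitochondrial genes. Foregut libraries were placed in their groups by their titles, because their status labels name hESC or endoderm without sgRNA instead. TTR, made by liver and foregut derivatives, was at 1744 ± 263 CPM (SD, n = 2) in foregut controls and 1722 ± 314 CPM (SD, n = 2) with sgRNA and had 0 reads in the other 8 libraries, and NANOG, a pluripotency factor, was at 0 CPM in both foregut controls. Summed CPM of 8 definitive endoderm markers was 28.3 to 42.6 in hESC, 5401 to 6034 in endoderm controls and 783 to 976 in foregut controls, and that of 8 primitive streak and mesoderm markers was 2.97 to 4.14, 740 to 1227 and 40.7 to 61.0. Foregut libraries stood apart in a further way. Of genes with at least 20 reads in 1 library of a group, 6.32% in foregut controls and 11.6% in foregut with sgRNA had 0 reads in the other library, against 0% in hESC, 0.0430% in endoderm controls and 0.0949% in endoderm with sgRNA.

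LTR5 transcripts were read in each library as a check of the sgRNA. Reads of the LTR5_Hs subfamily were at 18.5, 19.0 and 18.5 CPM in endoderm controls and at 11.8, 12.2 and 13.7 CPM with sgRNA, and those of LTR5B at 4.88, 5.51 and 5.29 CPM against 1.6, 3.19 and 2.69 CPM. Both subfamilies were lower in every sgRNA library of endoderm, whereas LTR5A was higher, at 38.2 to 65.5 CPM in controls and 88.2 to 107.5 CPM with sgRNA. In foregut, LTR5_Hs was at 9.76 and 8.24 CPM in controls and at 5.00 and 9.91 CPM with sgRNA, groups that overlap, while LTR5B was lower with sgRNA (13.3 and 8.74 against 6.31 and 2.19 CPM). None of the 10 genes had an LTR5 integrant within 100 kb. The nearest lay 137.7 kb from WNT3A, 317.8 kb from LEF1 and 451.1 kb from SP5, and the farthest 5731.5 kb from DKK1, while 14.5% of 20176 protein-coding genes had one within 100 kb.

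The promoters of SP5 and DKK1 are printed because both genes rose from under 0.2 CPM in hESC to over 5 CPM in endoderm, and that of WNT3 because it had the largest rise of the 4 ligands. The sequences are RefSeq promoters of GRCh38.p14, 250 bases before the start site and 50 after it, written 5′ to 3′ on the strand of the gene. Capitals mark matches to the TCF/LEF heptamer CTTTGNN, with A or T at both positions N, searched on both strands; a match on the other strand reads in reverse complement.
SP5 (chr2:170715087-170715386, + strand): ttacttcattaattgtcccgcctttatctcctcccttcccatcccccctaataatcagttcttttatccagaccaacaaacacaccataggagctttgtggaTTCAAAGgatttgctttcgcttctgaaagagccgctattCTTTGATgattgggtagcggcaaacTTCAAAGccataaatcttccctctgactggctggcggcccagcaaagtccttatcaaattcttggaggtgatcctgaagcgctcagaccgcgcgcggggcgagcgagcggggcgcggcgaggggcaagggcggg
DKK1 (chr10:52314031-52314330, + strand): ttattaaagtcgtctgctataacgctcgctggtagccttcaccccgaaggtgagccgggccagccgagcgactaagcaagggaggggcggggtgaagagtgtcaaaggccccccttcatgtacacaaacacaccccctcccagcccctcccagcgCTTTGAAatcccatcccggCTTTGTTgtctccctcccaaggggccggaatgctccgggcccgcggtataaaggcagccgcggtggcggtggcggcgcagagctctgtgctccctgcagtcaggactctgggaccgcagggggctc
WNT3 (chr17:46818643-46818942, - strand): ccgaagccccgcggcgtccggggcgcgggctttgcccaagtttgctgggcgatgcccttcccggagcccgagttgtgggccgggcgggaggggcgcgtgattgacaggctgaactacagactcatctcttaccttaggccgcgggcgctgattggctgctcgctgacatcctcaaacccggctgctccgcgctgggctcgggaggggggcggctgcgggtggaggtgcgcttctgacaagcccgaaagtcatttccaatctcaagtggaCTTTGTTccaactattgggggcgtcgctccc
SP5 held 3 matches, at 148, 109 and 84 bases before the start site, DKK1 held 2, at 95 and 76 bases before it, and WNT3 held 1, at 19 bases after it. The promoters of the other 6 genes with an entry held none, and AXIN2 is named only. Of 35116 promoters of the same length, 13.8% held at least 1 match, 1.58% at least 2 and 0.179% at least 3. A match is a description of the letters in the window and not a binding site.

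In GRCh37, the build of the bulk counts, SP5 spans chr2:171571847-171574588 (+), DKK1 chr10:54074041-54077802 (+), WNT3 chr17:44839872-44910520 (-), WNT3A chr1:228194699-228248972 (+), AXIN2 chr17:63524681-63557766 (-) and FRZB chr2:183698002-183731365 (-). WNT5A spans chr3:55499743-55524567 (-), WNT5B chr12:1639057-1756378 (+), LEF1 chr4:108968701-109090112 (-) and WIF1 chr12:65444406-65515085 (-).

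Open chromatin was read at these genes in the gastruloid, where the authors called 205374 peaks over all nuclei together. Of 11 RefSeq start sites of the 9 genes with an entry, 9 lay under a peak and 10 had one within 1 kb, against 67.2% and 79.1% of 22198 protein-coding start sites. The start site without a peak was the first of 2 of WNT5B. LEF1 held 24 peaks in its 121385 bases, and AXIN2 and WNT3 held 10 each, while the median protein-coding gene held 2. Per 10 kb of gene, 7 of 10 genes were above the 75th percentile of protein-coding genes (1.71 peaks), with SP5 at 7.29 and AXIN2 at 3.02, and FRZB at 1.2, WIF1 at 0.566 and WNT3A at 0.553 below it. A short gene passes this mark with few peaks: SP5 held 2 in 2742 bases, and DKK1, at 2.96, held 1 in 3377 bases.

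Differentiation to endoderm was accompanied by higher levels of the canonical ligands WNT3 and WNT3A, of the target genes SP5 and AXIN2 and of the antagonist DKK1, and by a lower level of WIF1, while WNT5A, WNT5B, FRZB and LEF1 were not called. Levels are CPM, reads per gene scaled to the library total, with TMM scaling, and a gene was called at an adjusted p under 0.05 and a fold over 2 in edgeR. By this rule 5 of the 10 genes were called higher and 1 lower in 3 endoderm control libraries against 2 hESC libraries, and 26.0% of the 20818 genes tested were called in either direction. In bulk RNA, fewer cells of a type and less RNA per cell cannot be told apart.

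Among the ligands, WNT3 was at 1.2 and 0.964 CPM in hESC and at 27.4, 26.5 and 25.7 CPM in endoderm controls. The endoderm libraries differed by little from each other and all lay far above hESC (log2 fold change 4.61, SE 0.28, adjusted p = 6.62e-09). WNT3A was much less abundant, at 0.0427 and 0.161 CPM, or 1 and 4 reads, in hESC and at 1.49, 1.06 and 0.637 CPM in endoderm. It was called higher (log2 fold change 3.31, SE 0.72, adjusted p = 0.00173), but not without hESC replicate 1 (2.68, adjusted p = 0.0506) nor in a fit of all 12 libraries (adjusted p = 0.0963).

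The noncanonical ligands showed another picture. WNT5A was at 10.2 and 9.44 CPM in hESC and at 22.6, 3.58 and 7.01 CPM in endoderm, so that endoderm replicate 1 lay above and the other two below hESC (log2 fold change 0.18, SE 0.50, adjusted p = 0.803). WNT5B was at 6.41 and 4.58 CPM and then at 8.56, 4.87 and 6.12 CPM, with overlapping groups (0.25, SE 0.30, adjusted p = 0.544). Reads of WNT5B cannot be fully told apart from those of FBXL14, which overlaps it on the opposite strand and had 1456 reads in all, since the strand setting of the counting is not given in the sources used here.

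Of the target genes, SP5, a zinc finger factor of the Sp family, was at 0.0854 and 0.161 CPM in hESC, 2 and 4 reads, and at 48.2, 57.3 and 53.7 CPM in endoderm. This was the largest fitted change of the 10 genes (log2 fold change 8.67, SE 0.36, adjusted p = 2.01e-10). AXIN2, a scaffold of the destruction complex that acts in negative feedback, was already present in hESC at 10.3 and 12.5 CPM and stood at 30.0, 34.7 and 32.1 CPM in endoderm (1.497, SE 0.22, adjusted p = 5.37e-05). LEF1, a DNA-binding partner of beta-catenin, did not share these changes, with 1.97 and 3.05 CPM in hESC and 1.84, 1.47 and 2.1 CPM in endoderm (-0.48, SE 0.35, adjusted p = 0.295).

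The antagonists differed among themselves. DKK1, which binds the LRP5 and LRP6 co-receptors, had 2 reads in each hESC library (0.0854 and 0.0804 CPM) and was at 6.91, 17.8 and 22.4 CPM in endoderm. The endoderm libraries thus spread over a wide range, all of it above hESC (log2 fold change 7.47, SE 0.64, adjusted p = 2.59e-07). FRZB, a secreted decoy related to the Frizzled receptors, was at 14.1 and 11.5 CPM and then at 5.52, 12.7 and 9.69 CPM (-0.46, SE 0.30, adjusted p = 0.244). WIF1, which binds WNT ligands outside the cell, was at 2.52 and 1.77 CPM in hESC and at 0.149, 0.230 and 0.127 CPM, or 3, 5 and 2 reads, in endoderm. It was called lower (-3.59, SE 0.50, adjusted p = 3.68e-05), though not in the fit of all 12 libraries (adjusted p = 0.0508).

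**Figure D1:**
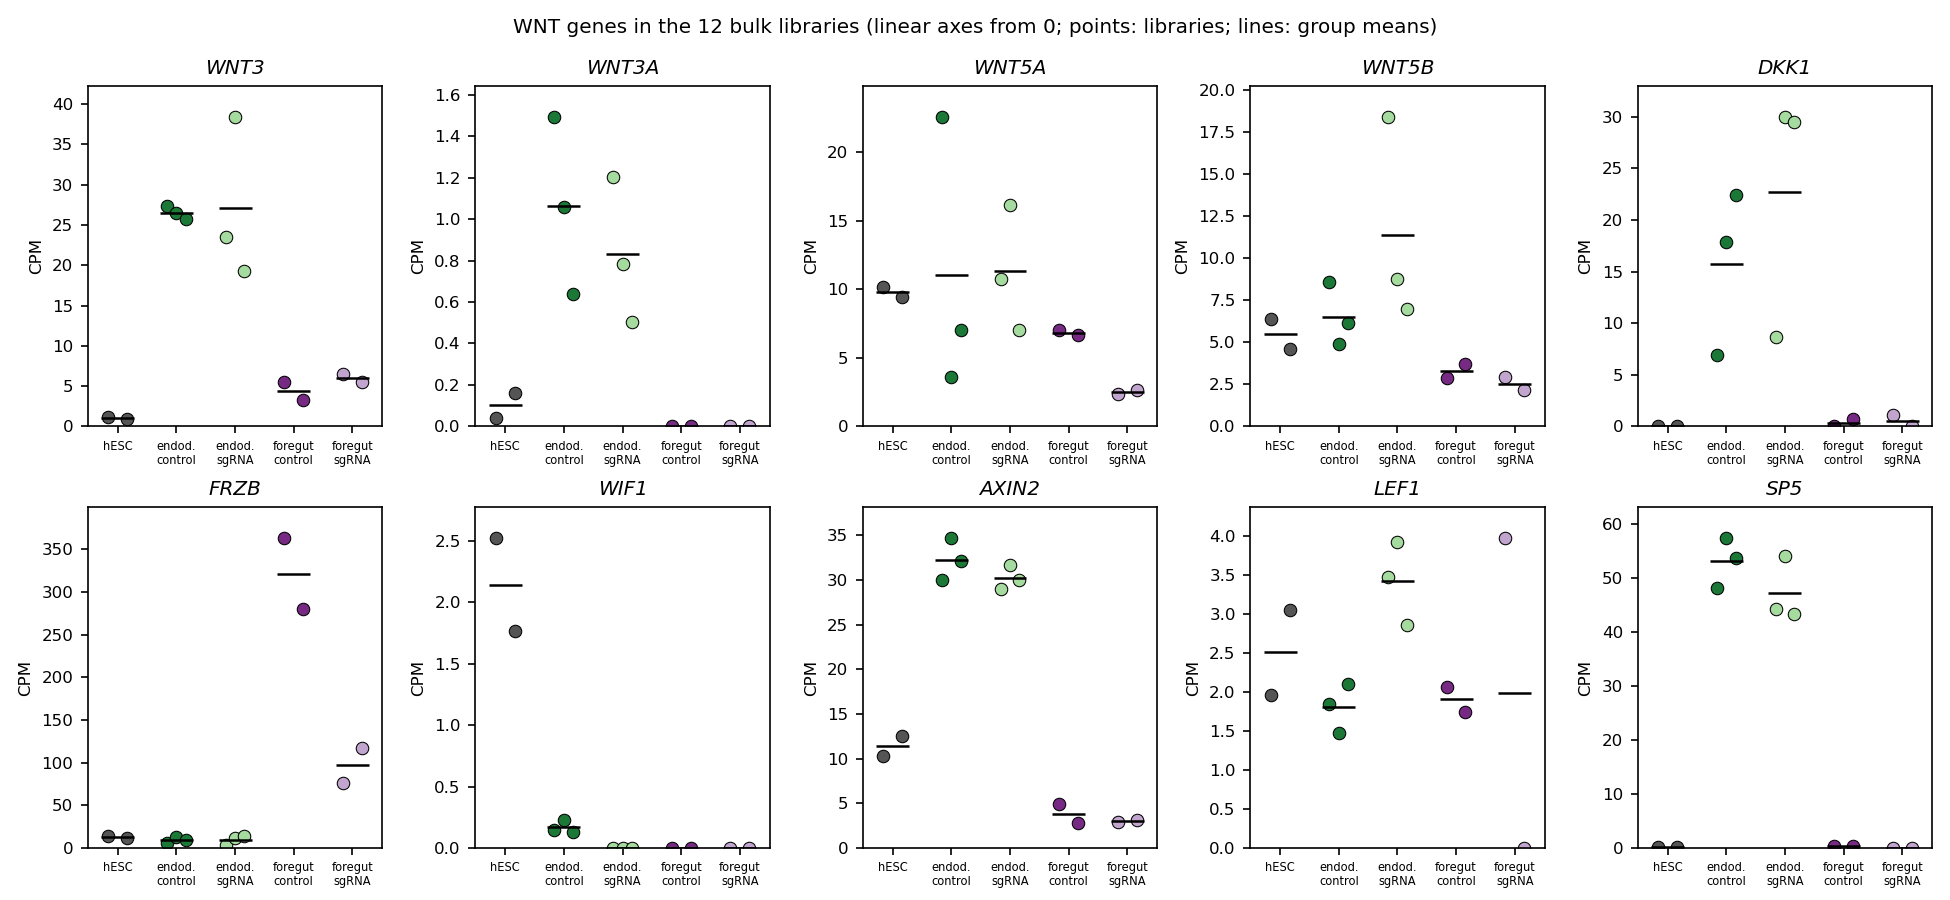
Level of each of the 10 genes in CPM on linear axes that start at 0, with a point for each of the 12 bulk libraries and a line at the mean of each group. WNT3, DKK1, AXIN2 and SP5 stand highest in both endoderm groups, FRZB in the foregut controls (363 and 280 CPM), and WIF1 in hESC (2.52 and 1.77 CPM).

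Divided by the summed exon length, so that genes can be compared, FRZB was the most abundant of the 10 in hESC (4.86 ± 0.688 CPM per kb, SD, n = 2) and WNT3A the least (0.0340 ± 0.0279). In endoderm controls SP5 led with 25.6 ± 2.21 CPM per kb (SD, n = 3), followed by DKK1 at 7.08 ± 3.59, AXIN2 at 6.21 ± 0.444 and WNT3 at 4.92 ± 0.150. The spread of DKK1 spans the AXIN2 and WNT3 means. In foregut controls FRZB led again, with 122 ± 22.2 CPM per kb (SD, n = 2), and the other 9 genes were each under 1 CPM per kb.

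Of 96 listed pathway genes 90 were tested in endoderm against hESC, of which 32 were called higher and 11 lower and 47 were not called. Of all 20818 genes tested, 14.2% were called higher and 11.8% lower. Without the 10 genes described here the counts on the lists were 27 and 10 of 80. The median log2 fold change of the list was 0.51, beside 0.04 over all genes tested. Among commonly used beta-catenin targets 13 of 20 were called higher and 1 lower. This list holds AXIN2, LEF1, SP5 and DKK1 of the 10 genes, and AXIN2, SP5, DKK1 and the streak factor TBXT are among the 13. Among ligands 6 were called higher and 1 lower of 14, among receptors 6 and 3 of 16, and among secreted antagonists 4 and 4 of 14. Of the destruction complex and transducers, 1 of 11 was called, AXIN2. Both genes of WNT secretion, PORCN and WLS, were called higher, WLS from 9.28 to 146 CPM on average.

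The 5 named rises were of 2 secreted antagonists, a receptor, a streak factor and a ligand. CER1, a secreted antagonist of Nodal, BMP and WNT made by endoderm, was at 0.190 CPM on average in hESC and 3863 CPM in endoderm (log2 fold change 14.29, SE 0.39, adjusted p = 4.58e-12). LGR5, an R-spondin receptor, went from 0.0201 to 9.0 CPM (8.40), TBXT, the streak factor, from 0.0829 to 24.1 CPM (8.09), WNT4 from 0.146 to 32.4 CPM (7.75) and DKK4, a relative of DKK1, from 0.379 to 57.3 CPM (7.24). The named falls were FZD10 (-2.23), SFRP2 (449 to 103 CPM, -2.12), the WNT5A receptor ROR1 (98.1 to 27.2 CPM, -1.85), CCND1 (158 to 46.0 CPM, -1.77) and RSPO4 (-1.55). FZD10 was not called in the fit of all 12 libraries (adjusted p = 0.117). Mitochondrial reads also moved between these groups, at 16.9% to 25.5% of reads in hESC and 8.30% to 14.4% in endoderm controls, and all 6 calls among the 10 genes stood when mitochondrial genes were left out of the fit.

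Against this background, foregut controls carried far less of the endoderm set. WNT3, WNT3A, DKK1, AXIN2 and SP5 were called lower in 2 foregut control libraries than in the 3 endoderm controls and FRZB was called higher, 6 of 10 genes, beside 29.0% of the 21466 genes tested. The endoderm controls are the same libraries as above, so that a high value in them raises the first change and lowers the second. The foregut and endoderm libraries carry different label fields and differ in the share of genes with reads in 1 library only. They were also made by different protocols, and CHIR is stated for the endoderm one only. Stage, protocol and set of libraries therefore cannot be told apart.

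WNT3 was at 5.55 and 3.27 CPM in foregut controls, under the endoderm libraries and above hESC (log2 fold change -2.59 against endoderm, SE 0.32, adjusted p = 3.37e-04). WNT3A had 0 reads in both foregut controls against 63 in the endoderm controls together, at least 25.5-fold lower against a floor of 3 reads over the group (adjusted p = 0.00549). WNT5A was at 7.0 and 6.69 CPM (-0.69, SE 0.65, adjusted p = 0.416) and WNT5B at 2.89 and 3.70 CPM (-0.97, SE 0.38, adjusted p = 0.0807). Neither passed the test, although both WNT5B values lay under all endoderm values.

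SP5 fell to 0.394 and 0.279 CPM, 12 and 11 reads (log2 fold change -7.29, SE 0.35, adjusted p = 3.26e-06). AXIN2 fell to 4.96 and 2.74 CPM, below its hESC level as well (-3.07 against endoderm, SE 0.33, adjusted p = 1.73e-04). LEF1, at 2.07 and 1.75 CPM, lay within the endoderm range (0.09, SE 0.47, adjusted p = 0.893). The target genes therefore did not move as 1 block at this step.

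FRZB rose from 5.52 to 12.7 CPM in endoderm controls to 363 and 280 CPM in foregut controls (log2 fold change 5.11, SE 0.34, adjusted p = 1.53e-05). It was the one gene of the 10 with its highest level in foregut. DKK1 had 0 reads in foregut control replicate 1 and 29 reads, 0.735 CPM, in replicate 2. It was called lower than in endoderm (-5.30, SE 0.996, adjusted p = 0.00341), and with 1 library left out at a time its log2 fold change ranged from -11.41 to -4.40. WIF1 had 0 reads in both foregut controls against 10 in the endoderm controls together, at least 4.05-fold lower (adjusted p = 0.116, not called).

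**Figure D2:**
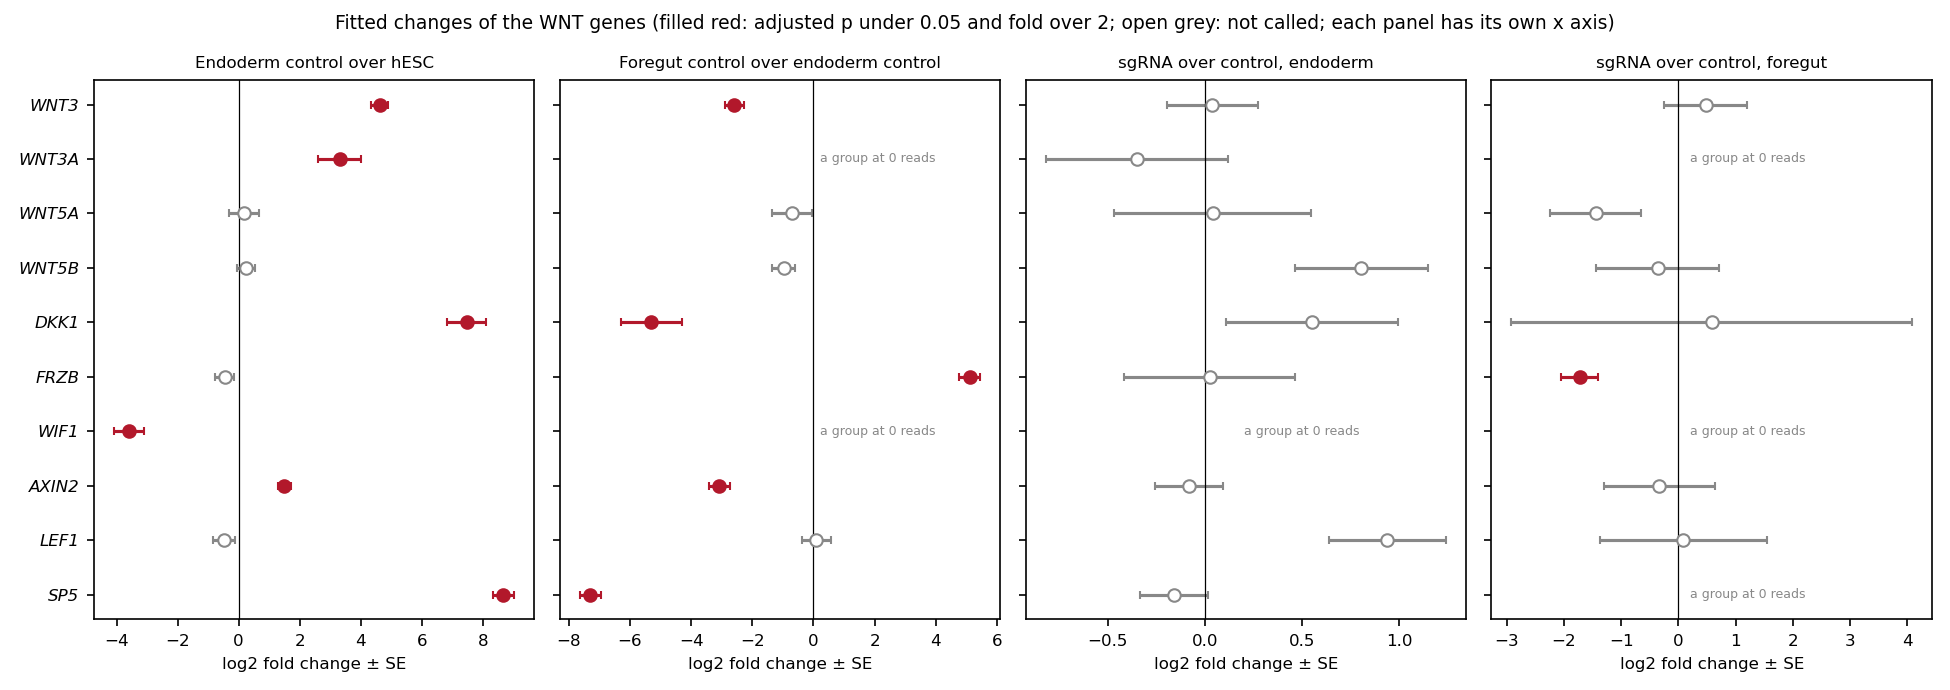
Fitted log2 fold change and its SE for the 10 genes in endoderm control over hESC, foregut control over endoderm control, and sgRNA over control in endoderm and in foregut, each panel on its own axis. Filled red points passed an adjusted p of 0.05 and a fold of 2, open grey points did not, and genes with a group at 0 reads carry no point; in the endoderm sgRNA panel 0 of 10 genes are red, and in the foregut one FRZB is.

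Over the pathway lists, 12 of 89 tested genes were called higher and 25 lower in foregut than in endoderm and 52 were not called, beside 14.1% called higher and 15.0% lower of the 21466 genes tested. The median log2 fold change was -0.49 on the lists and -0.09 over all genes. Without the 10 genes the counts were 11 and 20 of 79. Of the beta-catenin targets 3 were called higher and 9 lower of 20, with AXIN2, SP5, DKK1 and TBXT among the 9. Of the ligands 1 was called higher and 5 lower of 13, and of the secreted antagonists 3 higher and 5 lower of 15. The named rises were SFRP5, a secreted decoy known from ventral foregut (0.355 to 116 CPM, log2 fold change 8.31), the intestinal factor CDX2 (0.382 to 18.5 CPM, 5.62), TNFRSF19 (3.72), WNT11 (3.27) and the R-spondin gene RSPO3 (2.56). CER1 (-12.09) and TBXT (-7.68) were the named falls with reads in both groups. DKK4, WNT8A and SP8 had 0 reads in both foregut controls, at least 1336-fold, 121-fold and 57.6-fold lower than in endoderm.

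**Figure D3:**
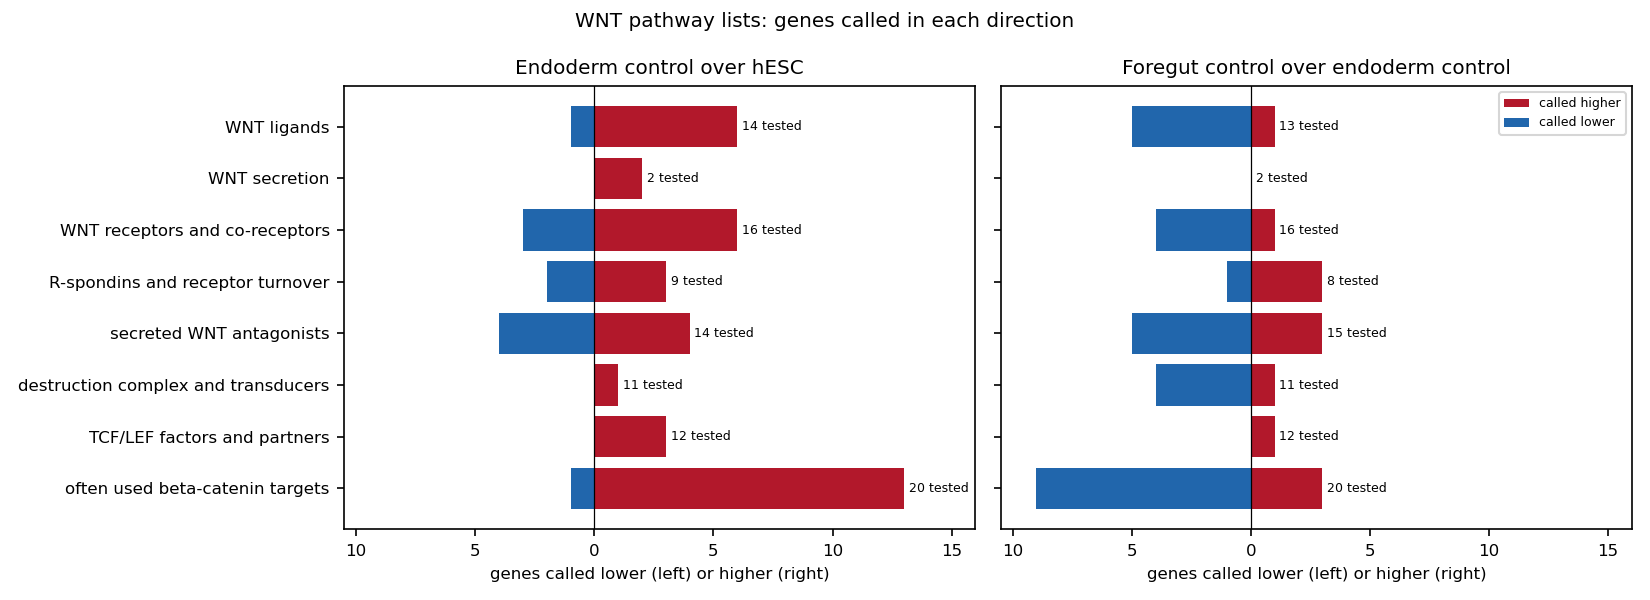
Number of genes called lower (left of 0) and higher (right of 0) in each WNT pathway list for endoderm over hESC and foregut over endoderm controls, with the number tested beside each bar. In endoderm the beta-catenin targets have 13 genes called higher and 1 lower of 20, and in foregut 3 higher and 9 lower of 20.

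Repression of LTR5 in endoderm left the 10 genes uncalled. With 3 sgRNA libraries against 3 controls, 0 of 10 passed in edgeR, beside 0.0343% (7) of 20407 genes tested, and at an unadjusted p under 0.05 there were 3 of 10 beside 1057 genes in all. Over the pathway lists 0 of 85 passed and 13 had an unadjusted p under 0.05. Neither DESeq2, with 47 genes called in all, nor voom, with 1, called any of the 10.

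WNT3 was at 23.5, 38.4 and 19.3 CPM with sgRNA, on both sides of the controls (log2 fold change 0.04, SE 0.24). SP5 was at 44.2, 54.1 and 43.4 CPM (-0.16, SE 0.18) and AXIN2 at 29.0, 31.7 and 30.0 CPM (-0.08, SE 0.18). These 3 fits had the smallest SE of the 10 genes and adjusted p of 0.999. WNT3A (1.2, 0.785 and 0.505 CPM), WNT5A (10.8, 16.1 and 7.06 CPM), FRZB (3.07, 11.5 and 13.5 CPM) and DKK1 (8.69, 30.0 and 29.4 CPM) also overlapped with their controls.

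LEF1 was at 3.48, 3.92 and 2.86 CPM with sgRNA, all above the controls at 1.84, 1.47 and 2.1 CPM (log2 fold change 0.94 with an SE of 0.30; unadjusted p = 0.00815, adjusted p = 0.602 in edgeR). Of 8 primitive streak and mesoderm markers, 2 stood apart between the same groups, both higher with sgRNA and neither called, HAND1 at 11.7 to 25.6 CPM in controls and 37.2 to 53.0 CPM with sgRNA and FOXF1 at 0.597 to 1.24 and 2.60 to 5.48 CPM. The other 6 overlapped, and the summed level of the 8 was 740 to 1227 CPM in controls and 949 to 1402 CPM with sgRNA. The part of these markers in the LEF1 values was not tested. The antisense gene LEF1-AS1 had 80 reads over the 12 libraries. WNT5B was at 18.4, 8.78 and 6.98 CPM, of which 2 lay above and the last within the control range (0.81, SE 0.34, unadjusted p = 0.0347, adjusted p = 0.899). WIF1 had 0 reads with sgRNA against 10 reads in the controls together, at least 2.73-fold lower (unadjusted p = 0.0248, adjusted p = 0.826). None of the 3 is a call after adjustment.

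In foregut, FRZB was called lower with sgRNA, the only call among the 8 of the 10 genes tested, beside 0.165% (33) of 20044 genes. WNT3A and WIF1 had 0 reads in all 4 libraries. FRZB was at 363 and 280 CPM in controls and at 76.7 and 117 CPM with sgRNA, groups that stand apart (log2 fold change -1.72, SE 0.32, adjusted p = 7.92e-05). The call was lost without foregut control replicate 1 (-1.54, adjusted p = 0.0687) and in the fit of all 12 libraries (-1.72, adjusted p = 0.104). It stood in DESeq2 and voom. The split of foregut libraries into control and sgRNA arms rests on their titles. LTR5_Hs levels overlapped between these arms, while LTR5B was lower with sgRNA.

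Of 8 foregut markers tested between the same 4 libraries, 2 were called, both lower with sgRNA. PDX1, a pancreatic and duodenal factor, was at 24.4 and 27.3 CPM in controls and at 2.73 and 7.76 CPM with sgRNA, and AFP was at 4.76 and 189 CPM against 0 and 0.0354 CPM. In spite of the spread of its controls AFP had an unadjusted p of 1.35e-65 in edgeR. A gene's own spread thus counted for little in this fit, which also holds the FRZB call. HNF4A and ONECUT1 were apart and lower and MNX1 apart and higher with sgRNA (57.9 and 62.7 against 74.9 and 77.4 CPM), none of them called, while SOX9, PROX1 and TTR overlapped. The summed level of the 8, most of it TTR, was 1894 to 2056 CPM in controls and 1632 to 2059 CPM with sgRNA. CDX2, in the pathway list as a target, was called lower with sgRNA (18.5 to 2.70 CPM, log2 fold change -2.77, SE 0.57, adjusted p = 9.92e-04). That call was lost in voom (adjusted p = 0.743), in the fit of all 12 libraries (0.0512), with a replicate block (0.0543) and without foregut control replicate 1 (1.0). The part of these differences in the FRZB values was not tested.

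WNT5A was at 7.0 and 6.69 CPM in controls and 2.38 and 2.63 CPM with sgRNA, apart from each other but not called (log2 fold change -1.44 with an SE of 0.79; adjusted p = 1.0, unadjusted p = 0.0697). WNT3 (6.56 and 5.57 CPM with sgRNA), WNT5B (2.94 and 2.15 CPM) and AXIN2 (2.91 and 3.16 CPM) were not called either. LEF1 and DKK1 were split within the sgRNA group, LEF1 with 112 reads in replicate 1 and 0 in replicate 2, and DKK1 with 31 and 0. No statement on the direction of either can be made from such values. Over the pathway lists FRZB and CDX2 were the calls, both lower, of 84 genes.

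SP5 had 12 and 11 reads in foregut controls and 0 in both sgRNA libraries, at least 5.60-fold lower against the floor of 3 reads. It was not called in foregut alone (adjusted p = 1.0) and was called in the fit of all 12 libraries (adjusted p = 0.00719). The difference of the sgRNA effect between foregut and endoderm was tested in a fit of those 10 libraries. SP5 was called there (log2 difference -5.80, SE 1.01, adjusted p = 0.0412), 1 of 10 genes beside 0.194% (44) of 22708 genes. As a group at 0 reads enters it, the size of this value depends on the prior count. The call was lost when any 1 of the 10 libraries but foregut sgRNA replicate 1 was left out (adjusted p 0.0570 to 0.0995), in voom (0.117) and with a replicate block (0.130). FRZB did not pass in this test (-1.75, SE 0.65, adjusted p = 0.509), so that its sgRNA effect is not shown to differ between the tissues, and LEF1 passed without foregut sgRNA replicate 1 only, where its remaining sgRNA library had 0 reads.

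Ordered by group means, WNT3, WNT5A, WNT5B and DKK1 were highest in endoderm with sgRNA and WNT3A, AXIN2 and SP5 in endoderm controls, but in each case the ranges of these endoderm groups overlapped. The next group down was apart from both for WNT3, WNT3A, DKK1, AXIN2 and SP5. For WNT5A and WNT5B hESC came next and overlapped with endoderm controls. For LEF1 all neighbouring groups overlapped, and for WIF1 hESC stood above every other group.

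In the gastruloid the same genes were read in single nuclei. Of 3646 deposited nuclei 3422 were kept. Of these, 3197 with at least 5000 unique molecular identifiers (UMIs) were thinned to that number, so that 225 were left out of the shares. The paper set some clusters of nuclei aside for low RNA or open chromatin counts. Its clusters were not used here, so nuclei of those clusters can be among the ones kept. A nucleus was called positive for TBXT, SOX2, TBX6 or PAX3 with at least 1 UMI of it after thinning, which gave 628, 508, 384 and 1644 nuclei; 729 had none of the 4 and 629 had 2 or more. This was 1 preparation, so there is no test between conditions, and intervals cover counting error only. Some other markers were more frequent in the positive nuclei of a class. CHRD and NOTO of the axial mesoderm were found in 50.5% and 40.1% of TBXT-positive nuclei against 8.95% and 8.25% of negative nuclei. TBXT-positive nuclei thus included many with axial markers. FGF17 was found in 43.7% of SOX2-positive against 14.7% of negative nuclei. DLL3 was found in 70.6% of TBX6-positive against 31.2% and MEOX1 in 56.3% of PAX3-positive against 32.1%. The classes were not cleanly separate, however. FGF17 was also more frequent with TBX6 (36.2% against 16.96%), and the presomitic marker HES7 was more frequent with TBXT as well (48.4% against 21.02%). Of 508 SOX2-positive nuclei, 247 were also PAX3-positive. Median depth before thinning was 17993 UMIs in TBXT-positive and 15790.5 in PAX3-positive nuclei, the extremes of the positive classes.

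LEF1 was the most widely detected of the 10 genes, in 73.9% of thinned nuclei, and WNT5A followed with 42.2%, WNT5B with 23.1%, SP5 with 22.1%, FRZB with 19.96%, AXIN2 with 16.3%, DKK1 with 15.6%, WNT3A with 7.57%, WNT3 with 4.57% and WIF1 with 1.63%. Share and UMIs depend on gene length and on intronic reads in nuclei and do not rank the genes by transcript number. Free RNA in droplets can give UMIs in nuclei that do not express a gene. Its part was not measured here, and low shares may rest on it. The shares in marker-negative nuclei stand beside each value. The median share of mitochondrial UMIs was 15.5% to 16.7% in the positive classes. Ratios below are of UMI CPM, UMIs of the gene scaled to all UMIs of the nuclei as in bulk, at full depth in the thinned nuclei, positive over negative, and a ratio of 1.5 or more either way was counted, a size chosen after the values were seen.

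WNT3A was the gene of the 10 whose level differed most between classes. It was found in 18.9% of TBXT-positive nuclei (95% interval 15.96% to 22.2%) and in 4.79% of negative nuclei (3.99% to 5.69%), or 54.9 against 13.4 UMI CPM (ratio 4.09). In PAX3-positive nuclei it was found in 3.04% against 12.4% of negative nuclei, or 8.64 against 34.8 UMI CPM (0.25). TBX6-positive nuclei lay between, at 12.8% against 6.86% (ratio 1.84). Without thinning, when any nucleus with a TBXT UMI at full depth counts as positive, the ratio for TBXT was 7.26. The cause of this difference was not tested. WNT3 had the same direction in TBXT-positive nuclei, 7.48% against 3.85% (ratio 2.07; 1.71 unthinned), but at 3000 UMIs a nucleus its shares were 2.16% and 2.33%, so that its difference in share depends on the depth used.

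WNT5A and WNT5B, which did not pass in any bulk comparison, were unequal between classes of nuclei and in different ones. WNT5A was found in 64.3% (59.3% to 69.1%) of TBX6-positive nuclei against 39.1% (37.3% to 41.0%) of negative nuclei, with a ratio of 1.83, and in 32.7% of PAX3-positive against 52.2% of negative nuclei (0.63). WNT5B was found in 38.6% (34.3% to 43.0%) of SOX2-positive nuclei against 20.2% (18.7% to 21.8%), with a ratio of 2.40, and in 34.4% of TBXT-positive against 20.4% of negative nuclei (1.76). In 116 nuclei positive for both TBXT and SOX2, WNT5B was found in 46.6% (37.2% to 56.0%) and WNT5A in 62.1% (52.6% to 70.9%). TBX6 did not mark a higher WNT5B level (21.9% against 23.3%).

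Among the target genes, SP5 followed TBXT, in 37.4% (33.6% to 41.3%) of positive nuclei against 18.4% (16.9% to 19.97%) of negative nuclei (ratio 2.48), and was also higher with SOX2 (30.7% against 20.5%, ratio 1.56) and lower with PAX3 (16.2% against 28.5%, ratio 0.47). LEF1 went the other way. It had 882 UMI CPM in TBX6-positive nuclei against 424 in negative nuclei (ratio 2.08; 84.6% against 72.4% of nuclei) and was lower with TBXT (311 against 524 UMI CPM, ratio 0.59). Its share in TBXT-positive nuclei was 9.90 percentage points lower after thinning and 3.60 points higher without it; at full depth 3187 of all 3646 nuclei held a LEF1 UMI. AXIN2 was the most even of the readouts, with ratios of 1.17, 1.1 and 1.13 for TBXT, SOX2 and TBX6 and 0.71 for PAX3.

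**Figure D4:**
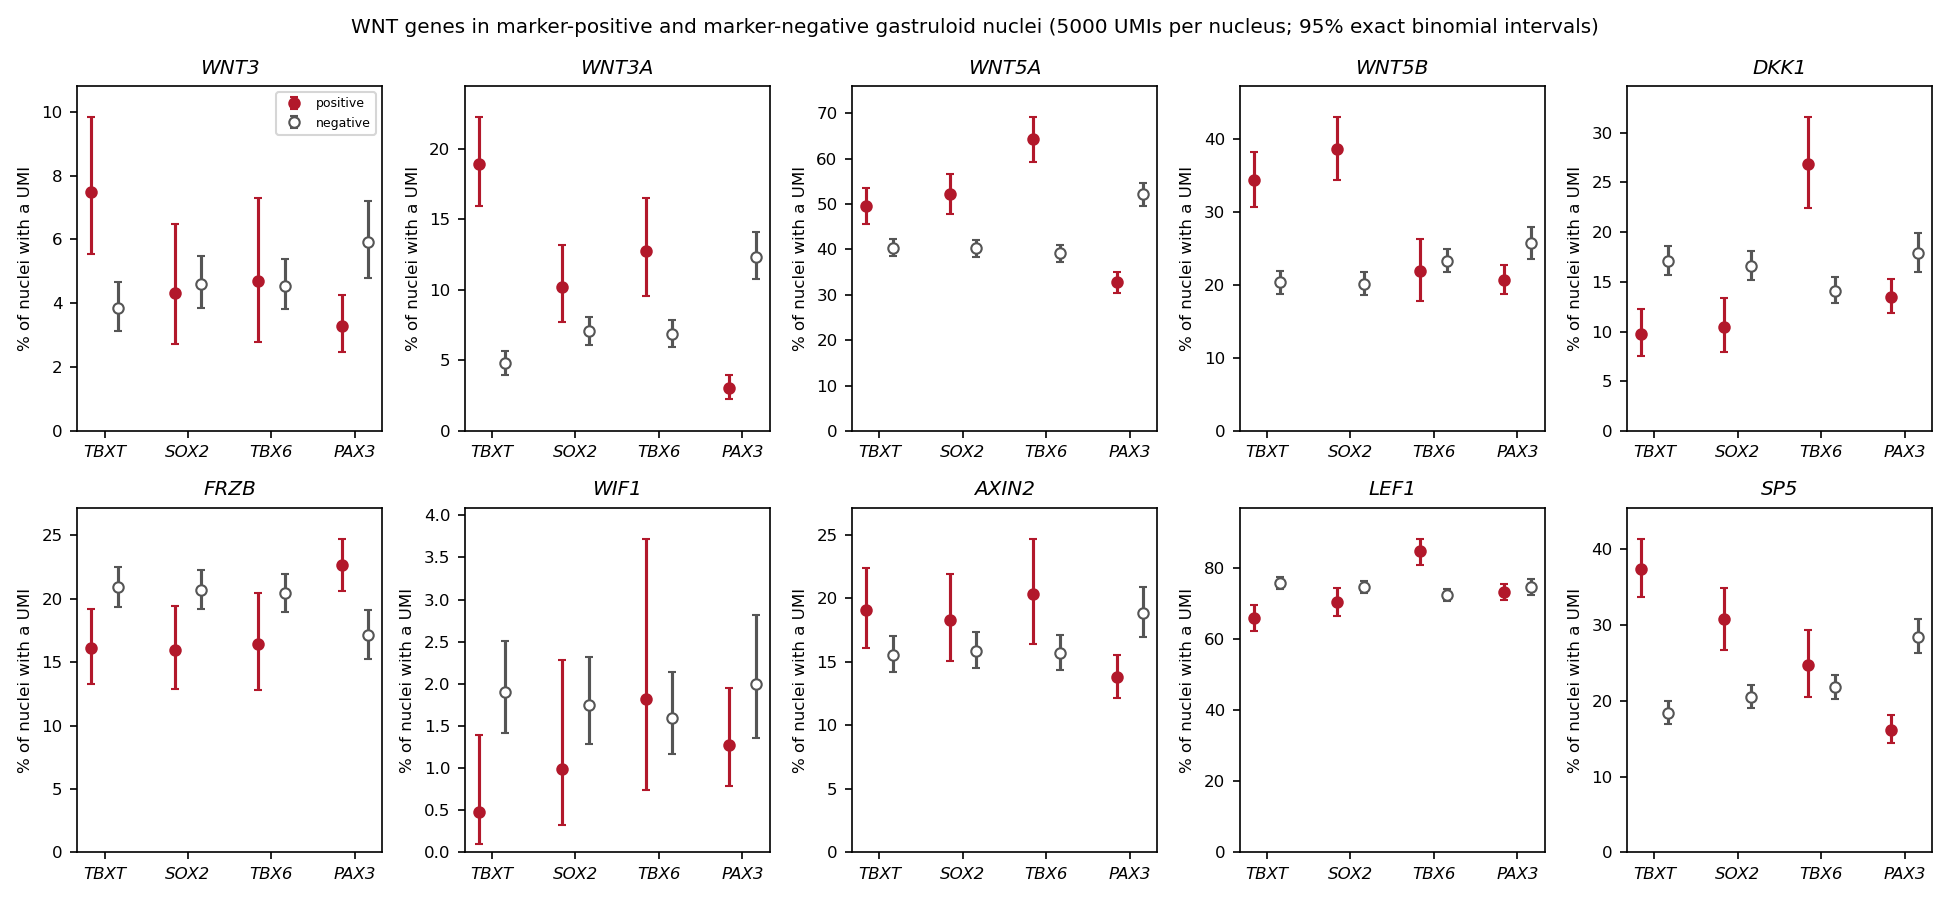
Share of gastruloid nuclei with a UMI of each of the 10 genes, in percent on axes from 0, in nuclei positive and negative for TBXT, SOX2, TBX6 and PAX3 after thinning to 5000 UMIs, with 95% exact binomial intervals. WNT3A is found in 18.9% of TBXT-positive nuclei and 4.79% of negative nuclei, and WNT5A in 64.3% of TBX6-positive nuclei and 39.1% of negative nuclei.

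DKK1 followed LEF1 in its classes. It was found in 26.8% (22.5% to 31.6%) of TBX6-positive nuclei against 14.1% (12.8% to 15.5%) of negative nuclei (ratio 2.06) and in 9.71% of TBXT-positive nuclei against 17.1% (0.46; 0.69 unthinned). In the 116 nuclei positive for TBXT and SOX2 it was found in 5.17%. FRZB was near even, with its highest ratio in PAX3-positive nuclei (22.6% against 17.1%, ratio 1.38). WIF1 was found in 52 of the 3197 nuclei, too few for a comparison of classes. Its ratio for TBX6, 0.55, rests on 19 UMIs at full depth in the positive nuclei, of which 7 held a WIF1 UMI after thinning. Without doublets called by Scrublet this ratio was 1.02.

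By the size rule 4 of the 10 genes were higher and 3 lower in TBXT-positive nuclei, beside 13.3% and 9.01% of the 17126 genes with at least 50 UMIs. In SOX2-positive nuclei 2 were higher and 3 lower (4.95% and 6.64% of those genes), in TBX6-positive nuclei 4 and 1 (4.26% and 10.8%) and in PAX3-positive nuclei 0 and 4 (6.14% and 10.5%). The 4 higher with TBXT were WNT3, WNT3A, WNT5B and SP5, and the 4 higher with TBX6 were WNT3A, WNT5A, LEF1 and DKK1. WNT3A was thus in both sets, and the target genes SP5 and LEF1 in one each. With PAX3, WNT3, WNT3A, WNT5A and SP5 were lower. The genes lower with TBXT and with SOX2 were DKK1, LEF1 and WIF1, and the gene lower with TBX6 was WIF1, which has too few UMIs for such a comparison; without it the lower counts were 2, 2 and 0. Over all 10 genes and without thinning, 1 was lower with TBXT, 1 with SOX2 and 0 with TBX6, and in nuclei with exactly 1 of the 4 markers 4 were lower with TBX6.

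**Figure D5:**
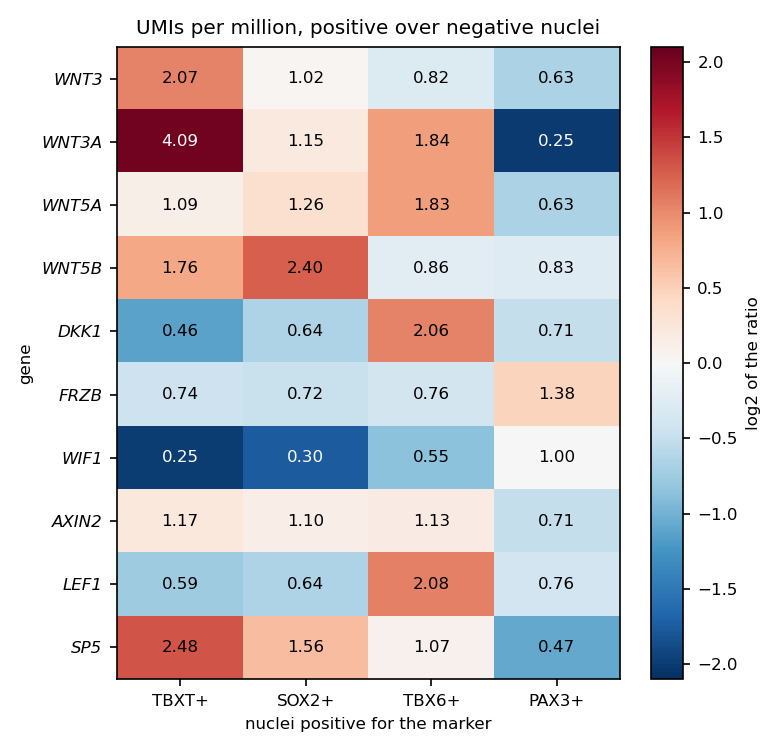
Ratio of UMI CPM in marker-positive over marker-negative gastruloid nuclei for the 10 genes (rows) and 4 markers (columns), with colour on a log2 scale and the ratio written in each cell. WNT3A runs from 4.09 in TBXT-positive to 0.25 in PAX3-positive nuclei, and AXIN2 stays between 0.71 and 1.17.

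CHIR-treated endoderm and CHIR-treated gastruloid were not compared by level, since the first are counts of bulk RNA and the second UMIs of nuclei. Side by side, SP5 was at 48.2 to 57.3 CPM in the endoderm controls, which also expressed TBXT (22.3 to 27.3 CPM), and in gastruloid nuclei it was found more often with TBXT than without. DKK1 was at 6.91 to 22.4 CPM in endoderm controls, and in the gastruloid it was found less often in TBXT-positive than in negative nuclei.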

How the data were processed

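RNA-seq counts were deposited by the authors as raw reads per gene for 12 bulk libraries, aligned with HISAT2 to hg19 and counted by the authors with featureCounts. Counts of transposable element integrants come from further tables of theirs, in which the other columns hold positions and names. Gastruloid UMI counts and peaks were deposited per nucleus and as a region list, made by the authors with Cell Ranger on hg38. No column of their own comparisons was used, and 0 columns of per-sample values were left unmapped. The 10 genes and the pathway lists were chosen with earlier results of these data known.

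Genes with at least 3 reads in 1 library of a fit were tested with edgeR 4.0.16 (R 4.3.3; quasi-likelihood F test, two-sided, TMM, Benjamini-Hochberg over all genes tested), with only the groups compared in each fit; SE is the fold change over the root of F. DESeq2 1.42.0, limma-voom 3.58.1, other filters and scalings, a fit of all 12 libraries, a replicate block and omission of each library were alternatives. On simulated counts with 200 genes changed by 2 on the log2 scale, the test recovered 97.5% in the endoderm against hESC design and 58.5% in the foregut sgRNA design. It also called unchanged genes, 5 beside 195 recovered ones in the first design and 17 beside 117 in the second. The 10 genes were described in every comparison; of the other pathway genes, the 5 largest rises and falls among calls at 1 CPM or more on average whose groups stood apart were named in the stage comparisons, and every call in the sgRNA comparisons.

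Nuclei needed 1000 UMIs, 200 genes and a mitochondrial share of 25% or less, and were thinned to 5000 UMIs (scanpy 1.11.5). Scrublet called 70 doublets (2.05%), which were kept in the main values. Intervals are 95% exact binomial (scipy 1.17.1). Same-numbered libraries deviated with correlations from -0.217 to 0.173, so that replicate numbers were not taken to pair them.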

Additional observations from a re-analysis of the deposited data

Results flagged for a closer look

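SP5 stood out by a test of the difference of the sgRNA effect between foregut and endoderm, with a log2 difference of -5.80 (SE 1.01, adjusted p = 0.0412 in edgeR over 22708 genes). It had 12 and 11 reads in the foregut controls and 0 in both foregut sgRNA libraries, and 48.2 to 57.3 CPM in endoderm controls and 43.4 to 54.1 CPM in endoderm with sgRNA. The value rests on a group at 0 reads and on a foregut level under 1 CPM in both arms, and the call was lost on leaving out any 1 of 9 of the 10 libraries.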

How the results depend on the processing

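In endoderm against hESC 5405 genes were called, 9599 at an unadjusted p with no limit on the fold and 4006 to 5544 with 1 library left out; of the 10 genes 4 to 5 were then higher, and 0 were lower in the fit of all 12 libraries. With sgRNA in endoderm 7 genes were called, against 47 in DESeq2, 1 in voom, 186 with a filter of at least 1 read, 1 with at least 10 reads in total, 1 in the fit of all 12 libraries, 1057 at an unadjusted p (2 of the 10 genes higher, 1 lower) and 1 to 9 with 1 library left out, the 1 without endoderm control replicate 1 or 2 or sgRNA replicate 1; DESeq2 moved the share called higher from 14.3% to 51.1%. In foregut against endoderm 6232 genes were called, 9553 at an unadjusted p and 4976 to 8095 with 1 library left out. With sgRNA in foregut 33 genes were called, against 11 in voom, 699 at an unadjusted p, 209 in the fit of all 12 libraries, 19 with a replicate block and 74 with the replicate numbers crossed (added after seeing the data), and 16 to 527 with 1 library left out: 16 and 0 of the 10 genes lower without control replicate 1 (1 with the others), 527 without sgRNA replicate 1 and 74 without sgRNA replicate 2. For the difference of the sgRNA effects 44 genes were called, against 236 in DESeq2 (share higher 27.3% and 37.7%), 139 with at least 1 read, 1870 at an unadjusted p, 16 with a replicate block and 0 to 805 with 1 library left out, the 805 without foregut sgRNA replicate 1; of the 10 genes 1 was lower, 0 in voom and with the replicate block, 2 at an unadjusted p and 0 to 2 with 1 library left out. The replicate block changed no other call of the 10 genes.

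Of nuclei, genes lower with TBXT numbered 1 unthinned (3 thinned), with SOX2 1 unthinned, at 3000 UMIs and without doublets (3), and with TBX6 0 unthinned and without doublets, 2 at 2 marker UMIs and 4 in nuclei with exactly 1 marker (1), where 1 was higher with PAX3 (0). Directions reversed for the LEF1 share with TBXT unthinned (3.60 points), the WNT3 share with TBXT at 3000 UMIs (-0.179 points) and the WIF1 ratio with TBX6 without doublets (1.02). The causes were not tested. WNT3A, WIF1 and, in foregut, DKK1, LEF1 and SP5 rest on few reads, which limits what their counts can show.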

Other observations

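Other pathway genes also differed between classes of gastruloid nuclei. Of 67 genes of the lists with at least 50 UMIs, other than the 10 described, 17 were at least 1.5 times higher and 7 at least 1.5 times lower in UMI CPM in TBXT-positive nuclei, TBXT itself among the 17, and 3 were higher and 17 lower in PAX3-positive nuclei. With TBXT, WNT11 had a ratio of 5.00, the feedback inhibitor NKD2 4.58, WNT9A 3.65, the DKK receptor KREMEN1 3.21 and CCND1 2.53, and the decoy gene SFRP1 had 0.44. WNT11, NKD2 and WNT9A had only 135, 144 and 244 UMIs over the 3197 nuclei. That is fewer than WIF1 (271), which was held to have too few, so their ratios carry the same limit. With TBX6, where 5 were higher and 9 lower, WNT8A had a ratio of 3.72 and RSPO3 2.35, against 0.40 for SFRP2 and 0.44 for LGR4. With SOX2, where 10 were higher and 7 lower, MSX1 had 2.41, the WNT5A receptor ROR1 2.28 and CDX2 2.11. In PAX3-positive nuclei the 3 genes higher were LGR4 (2.26), SFRP2 (1.84) and TLE4 (1.56). Of the 17126 genes with at least 50 UMIs, 13.3% were higher and 9.01% lower with TBXT, 4.26% and 10.8% with TBX6, 4.95% and 6.64% with SOX2 and 6.14% and 10.5% with PAX3. These are values of 1 preparation, with no test.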
